A study of Homo sapiens with 6 samples.

Results

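The genes described here are 36 genes of the unfolded protein response (UPR) and of the integrated stress response, listed by name from what is known of these pathways, at a time when earlier results of these data were known. Of these 36, 35 were measured among 19775 tested genes. The 1 probe set of SYVN1, the ubiquitin ligase HRD1, is shared with another symbol in the array's annotation, so SYVN1 has no value here. RNA came from subclones of DLD-1, a human colon cancer cell line, which were embedded in a gel of type I collagen at 1 mg/ml and left there untreated for 96 h. Of the 6 arrays, 3 carry the label DLD-1Δα-Cat and 3 the label DLD-1α-Cat. The labels do not say how the subclones were made or what the Δ stands for, and each label stands for 1 subclone as far as they tell. The labels do not say whether the replicates were grown apart, and p-values here reflect no more than the spread between these arrays, which may be technical. RNA was measured in bulk, where fewer cells of a type and less RNA per cell cannot be told apart.

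The unfolded protein response is the answer of a cell to misfolded proteins in the endoplasmic reticulum (ER), and it has 3 sensors in the ER membrane. PERK (EIF2AK3) phosphorylates the translation factor eIF2α, which lowers protein synthesis in general but favours translation of the transcription factor ATF4. Other kinases that sense lack of amino acids, double-stranded RNA or lack of haem act on eIF2α too, and the shared downstream programme is called the integrated stress response. IRE1α (ERN1) splices the mRNA of XBP1, and ATF6 is cut loose from the membrane. XBP1 and ATF6 then raise ER chaperones and the machinery of ER-associated degradation (ERAD). Secretory cells of the intestinal epithelium depend on the XBP1 branch. Phosphorylation, splicing and cleavage are not measured by these arrays, which report levels of RNA alone.

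Genes of the PERK-ATF4 arm lay on the high side of 0 and those of the chaperone arm around it. In DLD-1Δα-Cat all 15 members of the PERK-ATF4 arm had differences above 0, between 0.05 and 1.38 with a median of 0.42 (a positive difference means a higher log2 intensity in DLD-1Δα-Cat). The 17 measured members of the XBP1 and ATF6 chaperone and ERAD arm lay between -0.33 and 0.45 with a median of -0.01, and 8 of them were above 0. Over all tested genes the median was -0.03, and 44.7% were above 0. Single genes seldom passed the test: 3 of 35 members were higher in DLD-1Δα-Cat (DDIT3, ATF3 and HERPUD1) and 0 lower, against a background of 3.84% of all genes higher, 1.67% lower and 5.52% in either direction. A gene passed where its adjusted p in limma, a linear model fitted over all genes, was under 0.05 after Benjamini-Hochberg adjustment. At an unadjusted p under 0.05 there were 10 of 15 members higher in the PERK-ATF4 arm and 0 lower, and 1 higher and 2 lower of 17 in the chaperone arm, where 11.8% of all genes were higher and 8.98% lower.

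**Figure D1:**
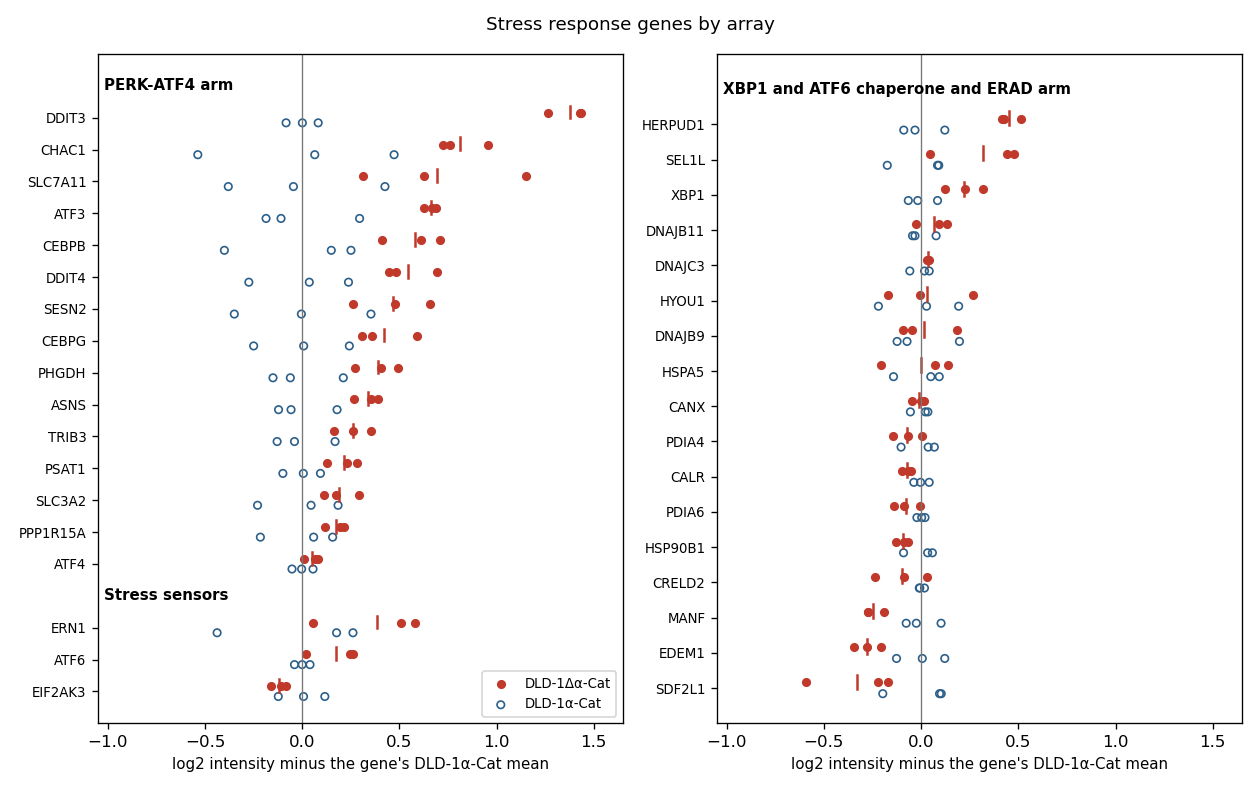
Log2 intensity of each of the 35 measured genes on each array, minus the mean of that gene in DLD-1α-Cat (x axis). Filled red points are the 3 DLD-1Δα-Cat arrays with their mean as a short line, and open blue points are the 3 DLD-1α-Cat arrays. Genes of the PERK-ATF4 arm lie to the right of 0, led by DDIT3, while those of the chaperone and ERAD arm lie around 0 except HERPUD1 and a few others.

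Some promoters of the chaperone and ERAD arm hold elements known from the UPR, and these sequences are shown before the values. Other members of that arm hold none of them. The windows run from 250 bases before to 50 bases after the gene start and were taken from RefSeq (GRCh38.p14); 35 of the 36 genes matched, all but SLC7A11. The ER stress response element (ERSE), which ATF6 and XBP1 are known to bind together with the CCAAT-binding factor NF-Y, was searched as CCAAT and CCACG with 9 bases between them, on both strands. It was found in 6 of 18 chaperone and ERAD members, in 0 of 14 PERK-ATF4 members and in 0 of 3 sensors, and 0.0769% of 35116 promoters hold it. The related ERSE-II, searched as ATTGG and CCACG with 1 base between them, was found in 3 further members of the chaperone and ERAD arm, in 0 of 14 and 0 of 3 of the other members, and in 0.0541% of all promoters. The list of chaperones was drawn from knowledge of UPR targets, so a high share is part of how it was made. Below are 9 stretches, 1 per gene, each site with 20 bases on either side, 5′ to 3′ on the strand of the gene. Capitals mark both parts of the element, which read CGTGG first where it lies on the opposite strand. HSP90B1 and HYOU1 hold a second site each, and the nearer one to the gene start is printed. The farther ERSE-II of HYOU1, from base -185 to -175, overlaps a match to TGACGTGG, the core of the UPR element bound by XBP1 and ATF6, found in 0.729% of promoters and in no other member.
HSPA5, chr9:125241371-125241429, minus strand, element from -66 to -48: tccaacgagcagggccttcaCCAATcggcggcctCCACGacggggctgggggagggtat
XBP1, chr22:28800583-28800641, minus strand, element from -52 to -34: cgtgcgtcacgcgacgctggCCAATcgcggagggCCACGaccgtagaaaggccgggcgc
HSP90B1, chr12:103930301-103930359, plus strand, element from -89 to -71: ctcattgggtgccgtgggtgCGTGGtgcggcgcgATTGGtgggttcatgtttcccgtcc
CANX, chr5:179698758-179698816, plus strand, element from -151 to -133: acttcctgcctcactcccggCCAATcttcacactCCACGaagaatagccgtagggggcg
CALR, chr19:12938364-12938422, plus strand, element from -225 to -207: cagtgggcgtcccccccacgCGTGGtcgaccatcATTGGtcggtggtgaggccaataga
CRELD2, chr22:49918534-49918592, plus strand, element from -80 to -62: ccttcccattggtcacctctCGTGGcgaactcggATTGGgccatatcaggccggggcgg
HERPUD1, chr16:56932005-56932055, plus strand, element from -117 to -107: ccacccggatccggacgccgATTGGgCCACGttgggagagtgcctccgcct
HYOU1, chr11:119057254-119057304, minus strand, element from -79 to -69: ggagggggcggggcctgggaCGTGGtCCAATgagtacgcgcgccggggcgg
SDF2L1, chr22:21642094-21642144, plus strand, element from -188 to -178: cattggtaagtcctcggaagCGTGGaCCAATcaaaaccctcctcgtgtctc

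The composite element that ATF4 binds with C/EBP factors, searched as TGATGNAAT on both strands, was found in 0.991% of promoters and in 0 of 14 PERK-ATF4 members. That count rests on the last letter: TGATGNAA, a looser pattern counted after the windows had been seen, was found in 4 of 14 (ASNS, ATF3, CHAC1 and SLC3A2), in HERPUD1 of the other arm, and in 3.62% of all promoters. The cAMP response element TGACGTCA, present in 1.85% of promoters, was found in PPP1R15A alone among the members, from base -58 to -51. The window of DDIT3 is printed whole because DDIT3 differed most. It is in lower case throughout, since none of the 5 motifs matched, which says only that these letters are not in it.
PPP1R15A, chr19:48872343-48872390, plus strand: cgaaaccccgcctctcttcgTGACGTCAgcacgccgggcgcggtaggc
DDIT3, chr12:57520465-57520764, minus strand: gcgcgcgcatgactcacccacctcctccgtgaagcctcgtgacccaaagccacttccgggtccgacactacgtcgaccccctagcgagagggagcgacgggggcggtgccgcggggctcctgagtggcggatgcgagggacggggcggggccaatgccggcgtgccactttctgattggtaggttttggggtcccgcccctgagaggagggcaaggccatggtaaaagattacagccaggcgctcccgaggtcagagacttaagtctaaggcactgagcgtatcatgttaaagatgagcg

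Facts of the whole series bear on these values as follows. Array medians over all probe sets lay between 6.12 and 6.15, values ran from 1.95 to 15.15, and the number of arrays limits the precision. CTNNA1, the gene of αE-catenin, is the gene the subclones' labels may refer to, and its mean was 11.23 ± 0.193 in DLD-1Δα-Cat, against 12.75 ± 0.0324 in DLD-1α-Cat (SD over 3 arrays), a difference of -1.52 (SE 0.119, limma adjusted p = 0.000838). Markers of colon epithelium had mean levels of 6.89 to 14.08, with 10 of 11 above the median gene (7.82); of these KRT20 rose by 4.89 and CDX1 fell by 1.09, while 0 of 11 fibroblast, 0 of 6 endothelial and 0 of 4 measured leukocyte markers were above it. The 3′ over 5′ signal of the β-actin control probes (log2), a sign of RNA quality, was 5.07 to 5.38 in DLD-1Δα-Cat, against 4.36 to 4.89 in DLD-1α-Cat (exact permutation test, two-sided p = 0.1, the smallest that 3 against 3 arrays allow). For GAPDH it was 0.69 to 0.82 in DLD-1Δα-Cat, against 0.51 to 0.79 in DLD-1α-Cat (exact permutation test, p = 0.4). The β-actin value splits the arrays by subclone, and with it as a covariate 58 genes were higher and 26 lower in place of 760 and 331. That fit reaches beyond any range the subclones share. Passing or failing in it, as given for single genes below, therefore neither strengthens nor weakens a call.

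The 3 sensors did not pass the test. PERK (EIF2AK3) stood at 8.77, 8.72 and 8.79 in DLD-1Δα-Cat, against 8.88, 8.99 and 8.75 in DLD-1α-Cat, a difference of -0.12 (limma adjusted p = 0.536). IRE1α (ERN1), the kinase and RNase that splices XBP1, stood at 10.13, 10.65 and 10.58 in DLD-1Δα-Cat, against 9.63, 10.25 and 10.33 in DLD-1α-Cat, and the subclones differed by 0.38 (SE 0.219, limma adjusted p = 0.367), or by 0.16 without DLD-1α-Cat replicate 1. ATF6 stood at 9.19, 9.44 and 9.42 in DLD-1Δα-Cat, against 9.13, 9.21 and 9.17 in DLD-1α-Cat, and the subclones differed by 0.18 (limma adjusted p = 0.381). The arrays of the subclones overlapped for all 3 sensors. The further probe sets of ERN1 disagreed with each other, since the middle one in brightness was higher in DLD-1Δα-Cat by 0.71 (adjusted p = 0.0412 in the limma fit of every probe set, where 2.23% of probe sets were higher and 1.15% lower) and the dimmest differed by -0.41 (adjusted p = 0.315).

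Of the 5 transcription factors of the PERK-ATF4 arm, DDIT3 and ATF3 rose and ATF4 itself did not pass. DDIT3 encodes CHOP, a C/EBP family factor that ATF4 induces and that is known for its part in ER stress-linked cell death. Its log2 intensity was 11.37, 11.20 and 11.37 in DLD-1Δα-Cat, against 9.85, 9.94 and 10.02 in DLD-1α-Cat. The groups are far apart relative to their spread, with means of 11.31 ± 0.0962 and 9.94 ± 0.0825 (SD, n = 3 each). The difference was 1.38 (SE 0.101, limma adjusted p = 0.000721), or 2.60-fold. DDIT3 passed in all 6 runs that left out an array (adjusted p between 0.00239 and 0.00581), with replicate number as a blocking term (0.00607) and with the β-actin ratio as a covariate (0.0332).

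ATF3, a stress-induced factor downstream of ATF4 that other stimuli induce as well, had log2 intensities of 7.95, 7.91 and 7.97 in DLD-1Δα-Cat, against 7.10, 7.17 and 7.58 in DLD-1α-Cat. Replicate 3 of DLD-1α-Cat lay nearest to the other subclone. The difference of 0.66 (SE 0.140, limma adjusted p = 0.0403), or 1.58-fold, passed in 1 of the 6 fits lacking an array, the one that left out replicate 3 of DLD-1α-Cat, with adjusted p between 0.0202 and 0.128. It did not pass with the β-actin ratio as a covariate (adjusted p = 0.107). ATF3 is dimmer than the median gene, and its further probe sets, dimmer still, differed by 0.00 and -0.20.

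ATF4 RNA was among the brightest measured, at 13.97, 14.03 and 14.04 in DLD-1Δα-Cat, against 13.91, 13.96 and 14.02 in DLD-1α-Cat. The arrays overlapped, and the difference of 0.05 (SE 0.0897, limma adjusted p = 0.781) was the smallest of the arm. CEBPB, a C/EBP factor that also responds to inflammatory signals, stood at 11.33, 11.63 and 11.53 in DLD-1Δα-Cat, against 10.52, 11.07 and 11.17 in DLD-1α-Cat. CEBPG, a dimer partner of ATF4, stood at 10.96, 11.02 and 11.24 in DLD-1Δα-Cat, against 10.40, 10.66 and 10.90 in DLD-1α-Cat. For neither gene did the arrays of the subclones overlap, but the differences of 0.58 (limma adjusted p = 0.127) and 0.42 (adjusted p = 0.166) did not pass.

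**Figure D2:**
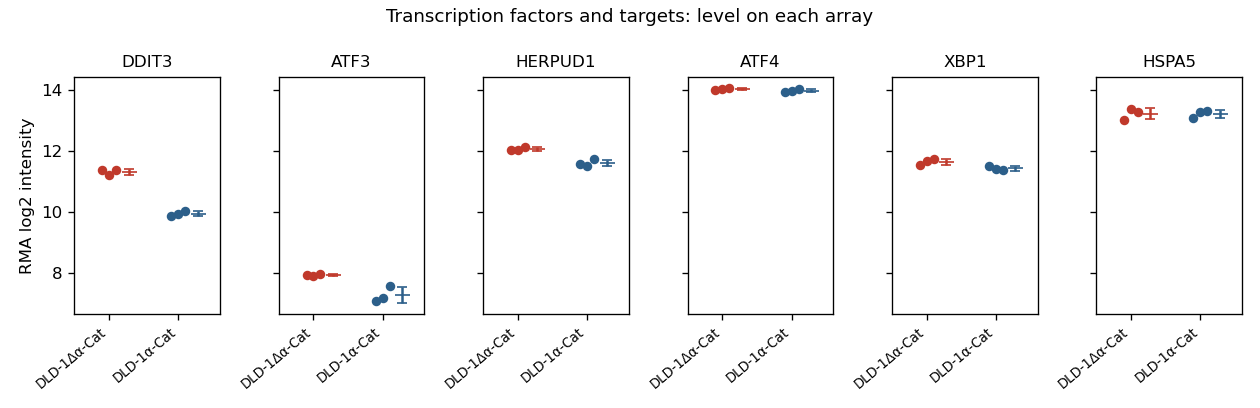
RMA log2 intensity (y axis) of 6 genes on each array, with DLD-1Δα-Cat in red and DLD-1α-Cat in blue. Each point is an array, and the bar beside the points is the mean with its SD (n = 3). DDIT3, ATF3 and HERPUD1 are separated by subclone, while ATF4 and HSPA5 overlap and XBP1 differs by 0.22 without overlap.

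Of CHAC1 and 2 genes that restrain the response, TRIB3 and PPP1R15A, none passed. CHAC1, an ATF4 target that breaks down glutathione, had log2 intensities of 9.31, 9.34 and 9.54 in DLD-1Δα-Cat, against 8.05, 8.65 and 9.06 in DLD-1α-Cat. The DLD-1α-Cat arrays were widely spread (SD 0.508), and the difference of 0.81 had an SE of 0.238 (limma adjusted p = 0.104). TRIB3, a pseudokinase that holds back ATF4 and CHOP, differed by 0.26 (adjusted p = 0.256), and PPP1R15A, the GADD34 subunit that directs dephosphorylation of eIF2α, by 0.18 (adjusted p = 0.441).

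DDIT4 (REDD1) and SESN2 both restrain the growth kinase complex mTORC1, and hypoxia induces DDIT4 too. DDIT4 stood at 13.60, 13.63 and 13.84 in DLD-1Δα-Cat, against 12.87, 13.19 and 13.39 in DLD-1α-Cat, with no overlap and a difference of 0.54 (SE 0.150, limma adjusted p = 0.0889). SESN2 stood at 9.70, 10.09 and 9.91 in DLD-1Δα-Cat, against 9.09, 9.43 and 9.79 in DLD-1α-Cat, where replicate 3 reached into the range of the other subclone. Its difference was 0.46 (SE 0.191, limma adjusted p = 0.224). With replicate number as a blocking term, a pairing read from these same data, DDIT4 passed (limma adjusted p = 0.0446).

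Genes of amino acid supply lay above 0 as well, none of them past the test. The differences of the 3 synthesis genes were 0.34 for asparagine synthetase (ASNS), 0.39 for PHGDH, which opens serine synthesis, and 0.21 for PSAT1, which follows it, with limma adjusted p of 0.143, 0.133 and 0.283. For these 3 genes no DLD-1α-Cat array reached the lowest DLD-1Δα-Cat array. SLC7A11, the cystine importer xCT, had 10.10, 10.94 and 10.41 in DLD-1Δα-Cat, against 9.41, 10.22 and 9.74 in DLD-1α-Cat. Replicate 2 was its highest array in each subclone, so the groups overlapped although each DLD-1Δα-Cat array exceeded the DLD-1α-Cat array of its number. The difference was 0.70 (SE 0.263, limma adjusted p = 0.191). It passed with replicate number as a blocking term (adjusted p = 0.0168), but that pairing was read from these same data and is no separate support. SLC3A2, the heavy chain that carries xCT and other transporters to the membrane, differed by 0.19 (adjusted p = 0.438).

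In the PERK-ATF4 arm 9 of 15 members had all DLD-1Δα-Cat arrays above all DLD-1α-Cat arrays, where 14.1% of all genes did so, and 0 of 15 had them all below, where 13.1% did so. In the chaperone and ERAD arm 2 of 17 had them all above (HERPUD1 and XBP1) and 3 of 17 all below (CALR, MANF and EDEM1). Differences of 0.3 or more were found in 10 of 15 members, against 14.3% of all genes. With replicate number as a blocking term 5 of 35 members were higher, namely DDIT3, ATF3, HERPUD1, DDIT4 and SLC7A11, and 0 lower, where 5.12% of all genes were higher and 2.27% lower. With trend and robust estimation 7 of 35 were higher, where 5.82% of all genes were higher and 2.85% lower, and with array weights 3, where it was 5.43% and 2.78%. The further probe sets of the PERK-ATF4 arm, 10 in all and dimmer by the rule that chose the first, had a median difference of 0.15, with 8 of 10 above 0. Those of the chaperone and ERAD arm, 22 in all, lay between -0.38 and 0.43 with a median of -0.09, and 7 of 22 were above 0.

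The chaperone and ERAD arm held 1 call among 17 measured members, or 5.88%, where 3.84% of all genes were higher and 1.67% lower. HERPUD1, a membrane protein of the ERAD machinery that responds to all 3 branches of the UPR and carries the ERSE-II shown above, had log2 intensities of 12.02, 12.01 and 12.11 in DLD-1Δα-Cat, against 11.57, 11.51 and 11.72 in DLD-1α-Cat. The groups did not overlap, and the difference was 0.45 (SE 0.0997, limma adjusted p = 0.0457), or 1.37-fold. This call passed in 0 of the 6 fits lacking an array (adjusted p between 0.0747 and 0.161) and not with the β-actin ratio as a covariate (0.245). The second probe set of HERPUD1, near the bottom of the scale at a mean of 4.88, differed by -0.27.

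XBP1, the transcription factor of the IRE1 branch, stood at 11.54, 11.65 and 11.74 in DLD-1Δα-Cat, against 11.50, 11.40 and 11.35 in DLD-1α-Cat. Its arrays did not overlap, but the difference of 0.22 did not pass (limma adjusted p = 0.263), and spliced and unspliced XBP1 were not told apart. HSPA5, the ER chaperone BiP and the usual readout of ER stress, stood at 13.00, 13.35 and 13.28 in DLD-1Δα-Cat, against 13.07, 13.26 and 13.30 in DLD-1α-Cat. These values interleave, and the difference was 3e-05 (SE 0.127, limma adjusted p = 1.00). HSPA5 was bright in both subclones, at a mean of 13.21 in each.

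By the brightest probe set of each gene, most other folding factors lay within 0.10 of 0, the exceptions being SDF2L1 and MANF. HSP90B1 (GRP94), the BiP cochaperones DNAJB9, DNAJC3 and DNAJB11 and the exchange factor HYOU1 differed by -0.10, 0.01, 0.04, 0.06 and 0.03. The disulfide isomerases PDIA4 and PDIA6 and the lectin chaperones CALR and CANX differed by -0.07, -0.08, -0.07 and -0.01. Of the 13 lumenal folding genes, including HSPA5, 0 passed in limma, where 5.52% of all genes did. At an unadjusted p under 0.05, 0 were higher and 1 lower, against 11.8% and 8.98% of all genes. Of the 13, 8 lay below 0, and the median was -0.07. The 3 deepest values of the arm were those of the BiP cofactor SDF2L1 (-0.33, limma adjusted p = 0.266, and -0.20 without DLD-1Δα-Cat replicate 2), the ERAD mannosidase-like EDEM1 (-0.28, adjusted p = 0.188) and the secreted ER stress factor MANF (-0.25, adjusted p = 0.202). MANF stood at 12.52, 12.44 and 12.43 in DLD-1Δα-Cat, against 12.81, 12.63 and 12.68 in DLD-1α-Cat, with no overlap. CRELD2, another secreted UPR target, differed by -0.10, and SEL1L, the partner of SYVN1 in ERAD, by 0.32 (adjusted p = 0.274). The 9 genes with an ERSE or ERSE-II in the sequences printed above had a median of -0.01, and 4 of 9 were above 0.

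**Figure D3:**
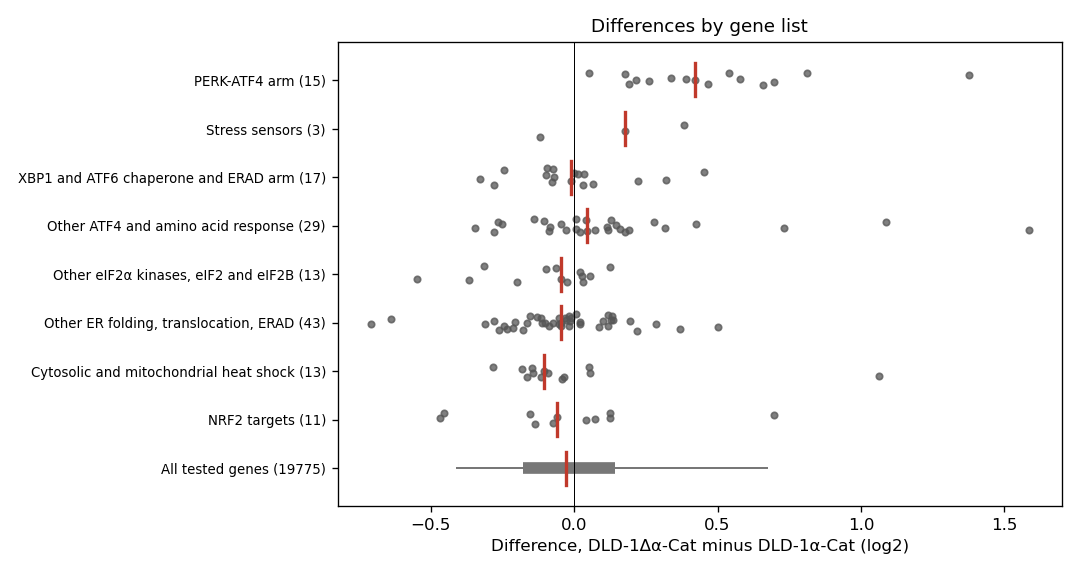
Log2 difference of each gene between the subclones, positive where DLD-1Δα-Cat was higher (x axis), for the members by arm, for 5 further lists and for all tested genes, with the number of genes in brackets. Points are genes and red lines medians; for all genes the thick bar spans the 25th to the 75th percentile and the thin line the 5th to the 95th. The PERK-ATF4 arm has a median of 0.42, against -0.01 in the chaperone and ERAD arm.

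The contrast between the arms was read array by array, as the median over an arm's genes of the value minus the gene's DLD-1α-Cat mean. For the PERK-ATF4 arm it was 0.27, 0.40 and 0.49 in DLD-1Δα-Cat, against -0.22, 0.00 and 0.18 in DLD-1α-Cat. The lowest DLD-1Δα-Cat array thus lay above the highest DLD-1α-Cat array, and the arm varied within each subclone as well. For the chaperone and ERAD arm it was -0.07, 0.00 and -0.03 in DLD-1Δα-Cat, against -0.03, 0.00 and 0.03 in DLD-1α-Cat, so the arrays of this arm overlapped. The spread of these medians within subclones was 0.161 for the PERK-ATF4 arm and 0.0335 for the chaperone and ERAD arm (pooled SD). The median differences of the arms were 0.43 apart, and 0.37 to 0.59 apart in the runs that left out an array. These values describe the arms and carry no test, since the genes were chosen with earlier results of these data known.

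Replicate 1 was the lowest array for 13 of 15 PERK-ATF4 members within DLD-1Δα-Cat and also for 13 of 15 within DLD-1α-Cat, compared with 37.1% and 34.3% of all genes. Without DLD-1α-Cat replicate 1 the differences were 0.38 for CEBPB, 0.29 for SESN2, 0.07 for PPP1R15A and 0.08 for SLC3A2, against 0.58, 0.46, 0.18 and 0.19 with all arrays. Compared number by number, DLD-1Δα-Cat was higher in 15, 15 and 14 of the 15 members for replicates 1, 2 and 3, with median differences of 0.56, 0.47 and 0.28. The exception was SLC3A2 in replicate 3, at -0.01. In the chaperone and ERAD arm DLD-1Δα-Cat was higher in 8, 6 and 5 of 17 members. Over all genes it was higher in 46.2%, 50.5% and 47.7% for the 3 numbers. The members of the PERK-ATF4 arm moved together from array to array, so counts of them are not counts of separate observations. The pairing by number was read from the data.

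**Figure D4:**
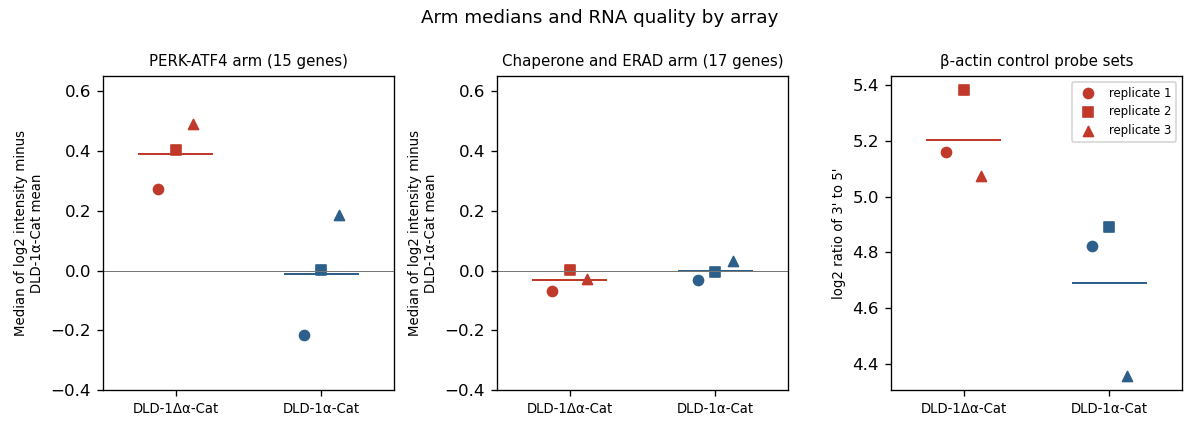
Median over the genes of each arm of log2 intensity minus the gene's DLD-1α-Cat mean (left and middle), and the 3′ over 5′ signal of β-actin control probes on the log2 scale (right), for each array. Symbols give the replicate number, lines the mean of 3 arrays, DLD-1Δα-Cat in red and DLD-1α-Cat in blue. The subclones separate in the PERK-ATF4 arm and in the β-actin ratio, and overlap in the chaperone and ERAD arm.

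The β-actin ratio separated the subclones without overlap, as the PERK-ATF4 arm did, so ratio and subclone cannot be told apart here. A fit with the ratio as a covariate reaches beyond any range that the subclones share, and cannot decide its part in the arm's shift. In that fit the arm's median was 0.64 and all 15 members were above 0, while DDIT3 was the 1 member that passed. In each subclone replicate 3 had the lowest ratio (4.36 in DLD-1α-Cat and 5.07 in DLD-1Δα-Cat) and the highest arm median (0.18 and 0.49). Ratio and replicate number cannot be told apart in this, and it was not tested.

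Further genes of the same pathways, from lists drawn up as background for the members, held 2 genes that rose. NUPR1, a small stress-induced chromatin protein and ATF4 target, had log2 intensities of 11.53, 11.57 and 11.28 in DLD-1Δα-Cat, against 9.72, 10.04 and 9.87 in DLD-1α-Cat. Its difference of 1.59 (SE 0.127, limma adjusted p = 0.000906) exceeded that of DDIT3, and it passed in all 6 fits lacking an array. VLDLR, a lipoprotein receptor that the PERK-ATF4 branch can induce, had 7.61, 7.76 and 7.72 in DLD-1Δα-Cat, against 6.57, 6.53 and 6.72 in DLD-1α-Cat, and the subclones differed by 1.09 (SE 0.101, limma adjusted p = 0.00163), a call that also held in all 6. With the β-actin ratio as a covariate neither passed (adjusted p = 0.0783 for NUPR1 and 0.0691 for VLDLR). These were the 2 calls among 29 measured genes of the ATF4 and amino acid response outside the members, or 6.90%, where 3.84% of all genes were higher and 1.67% lower. The median of that list was 0.04, with 19 of 29 above 0. The 7 measured tRNA synthetases of the list, none of which passed, lay between -0.27 (AARS1) and 0.42 (WARS1), with 1 of 7 below 0. The ATF4 relative ATF5 differed by -0.35 (limma adjusted p = 0.263).

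Of the 13 genes for the other eIF2α kinases, eIF2 and its exchange factor eIF2B, 0 passed in limma in either direction, where 5.52% of all genes did. At an unadjusted p under 0.05 there were 0 higher and 3 lower, where 11.8% of all genes were higher and 8.98% lower. The most different was the eIF2B subunit EIF2B3 at -0.55 (limma adjusted p = 0.105). It passed with replicate number as a blocking term (adjusted p = 0.0438), on the pairing read from these same data. Among 43 measured genes of ER folding, translocation and ERAD outside the members, ERO1B fell and 0 rose. That was 2.33% of the list lower, where 1.67% of all genes were lower and 3.84% higher. ERO1B, an oxidase that drives disulfide formation, stood at 10.44, 10.35 and 10.32 in DLD-1Δα-Cat, against 10.95, 11.18 and 10.90 in DLD-1α-Cat, and the subclones differed by -0.64 (SE 0.109, limma adjusted p = 0.0193), a call lost without any 1 of the 3 DLD-1Δα-Cat arrays, held in the other 3 fits lacking an array, and lost with the β-actin covariate (0.230). The list had a median of -0.05, with 15 of 43 above 0, close to that of the chaperone and ERAD members.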

How the data were processed

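The authors deposited log2 intensities in 1 table; the submitters' processing notes name RMA and Affymetrix Expression Console without versions. RMA corrects background and equalises the arrays' distributions, which hides any change of total RNA. From 54675 probe sets, 62 controls were left out, and 41091 had 1 gene symbol in the platform annotation of 2016, of which 41037 matched RefSeq by gene ID. For each of 19775 genes the probe set with the highest mean over the 6 arrays was used, with no filter on dim genes. The subclones were tested against each other by lmFit and eBayes of limma 3.58.1 (R 4.3.3), two-sided, and p-values were adjusted over the 19775 genes after Benjamini and Hochberg. The fit was run on simulated data with independent noise, which held no pairing of arrays and no effect of RNA quality. Full recovery was required only at the largest simulated difference, which exceeds that of every member.

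Members, arms, motifs and lists were chosen with earlier results of these data known. Array values are given for members that passed, for sensors and for ATF4, XBP1 and HSPA5, and for the 6 further members with the largest differences among those brighter than the median gene. Of other lists every called gene is named, or else the most different bright one; the array values of MANF and the genes AARS1, WARS1, ATF5 and TNFRSF10B were added after their values were seen. Same-numbered arrays deviated together from their group means (correlations 0.225, 0.376 and 0.122, each above 0.1), so the numbers were taken to pair the arrays, from the data and not from a stated design. Alternatives were the replicate block, quantile normalization, centring, a filter on dim genes, the mean of probe sets, every probe set, trend and robust estimation, array weights, each array left out, the β-actin ratio as a covariate, and 2 changes of the arms.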

Additional observations from a re-analysis of the deposited data

How the results depend on the processing

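DDIT3 passed under all 15 alternative fits, and no member was lower in any of them. The count of members higher, 3 in the reported fit, was 5 with the replicate block, 7 with trend and robust estimation (CHAC1, DDIT4, ASNS and PHGDH added), and 1 each with centring, the mean of probe sets, every probe set tested and the β-actin covariate, where ATF3 and HERPUD1 did not pass; quantile normalization gave 2 (without ATF3), and leaving out single arrays gave 1 to 2. All genes higher, 760, became 1150 with trend and robust estimation, 58 with the β-actin covariate and 323 to 854 without single arrays. All genes lower, 331, became 525 with centring, 564 with trend and robust estimation, 549 with array weights, 26 with the covariate and 116 to 348 without single arrays. The replicate block changed the calls of DDIT4 and SLC7A11 and of no other member. The share of calls that were higher was 69.7%, against 51.3% with centring and 59.6% with quantile normalization of the gene table.

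The PERK-ATF4 median (0.42) was 0.28 with centring, 0.64 with the β-actin covariate and 0.31 to 0.54 without single arrays. Its distance from the chaperone median (0.43) was 0.68 with that covariate and 0.37 to 0.59 without single arrays. The chaperone median (-0.01) was -0.15 with centring, where 3 of 17 members were above 0. It was -0.078 with the mean of probe sets, and -0.068 to -0.022 without single arrays. Centring moved the median of all genes by -0.14, and relative to it the arms lay at 0.45 and 0.02 as before. HERPUD1 moved to the other arm, or DDIT4, CEBPB and ATF3 left out, gave PERK-ATF4 medians of 0.44 and 0.36. All 15 PERK-ATF4 members stayed above 0 in each alternative except centring (14). The cause of these changes was not tested.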

Other observations

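Stress genes outside the ER pathways gave 1 call in each of 2 lists, of 13 and 11 measured genes. Over all genes 5.52% were called in either direction. Among 13 measured genes of the cytosolic and mitochondrial heat shock response, HSPH1 (HSP105), an exchange factor of HSP70, stood at 13.16, 13.09 and 13.08 in DLD-1Δα-Cat, against 12.12, 11.98 and 12.03 in DLD-1α-Cat. It rose by 1.06 (SE 0.0914, limma adjusted p = 0.00123) and did not pass with the β-actin covariate (0.0762). The list's median was -0.11 and 3 of 13 genes were above 0. All DLD-1Δα-Cat arrays lay below all DLD-1α-Cat arrays for 6 of 13 genes, where 13.1% of all genes did so. They lay above for 1 of 13, where 14.1% did so. Among 11 measured NRF2 genes, of which SLC7A11 is also a member of the PERK-ATF4 arm, GCLC, the catalytic subunit of the first enzyme of glutathione synthesis, fell by 0.45 on the log2 scale (limma adjusted p = 0.0431). GCLC passed neither with the replicate block (adjusted p = 0.0623) nor in any of the 6 fits lacking an array. The NRF2 list had a median of -0.06, with 5 of 11 above 0.

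Of 7 measured death genes downstream of CHOP, 0 passed in limma, where 5.52% of all genes did. At an unadjusted p under 0.05, 1 was higher and 0 lower, where 11.8% of all genes were higher and 8.98% lower. BCL2L11 (BIM), a death-promoting BCL2 relative, stood at 11.17, 11.23 and 11.37 in DLD-1Δα-Cat, against 10.32, 10.87 and 10.81 in DLD-1α-Cat, a difference of 0.59 (adjusted p = 0.0834). TNFRSF10B (DR5), a death receptor that CHOP can induce, differed by 0.04 (adjusted p = 0.83).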
